A study of Arabidopsis halleri subsp. gemmifera and Arabidopsis thaliana with 4 samples.

Results

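The genes followed were 10 loci of Arabidopsis zinc supply: the transcription factor genes BZIP19 and BZIP23 and 8 genes of the ZIP transporter family that are known as their targets, ZIP1, ZIP3, ZIP4, ZIP5, ZIP9, ZIP10, ZIP12 and IRT3. They were chosen by name, by their loci, out of 33602 loci counted. Roots of Arabidopsis halleri ssp. gemmifera (Ah root), a wild species that stores large amounts of zinc and cadmium in its leaves, were set against roots of A. thaliana (At root), with 2 libraries for each species. The labels call the libraries biological replicates without giving plants, age or accession, so p-values measure the spread between these libraries, which may be technical. Plants of both species stood in the same control hydroponic solution, which held 0.8 µM ZnSO4, 10 µM NaFeEDTA, 0.3 µM CuSO4 and 9.1 µM MnCl2, and no group was given high or low zinc.

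As background, BZIP19 and BZIP23 are closely related basic leucine zipper proteins that bind zinc through a cysteine- and histidine-rich motif. In A. thaliana short of zinc they switch on their targets, and with enough zinc they fall silent, largely without a change in their own transcripts. The targets are mostly ZIP proteins, membrane carriers that bring zinc and related metals into the cytosol, together with nicotianamine synthase genes, whose product binds zinc for movement within the plant. High root expression of ZIP genes under ample zinc is a known feature of A. halleri.

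The factors bind the zinc deficiency response element (ZDRE), a palindrome of 10 bases around the core TGTCGACA, which reads the same on both strands. The matches before the members' coding starts are shown because they are the point where regulators and targets meet. They were read from the A. thaliana genome (RefSeq, TAIR10.1), in the direction of the gene, with the element in capitals. The regions are chr1:3667161-3667188 and chr1:3667033-3667060 (both minus strand) for ZIP4, chr1:22447306-22447333 and chr1:22447208-22447235 (both minus strand) for IRT3, chr1:11177461-11177488 (minus strand) for ZIP10, chr5:24959931-24959958 (plus strand) for ZIP12 and chr1:1548663-1548690 (minus strand) for ZIP5.
ZIP4, far: aacgcgaaaATGTCGACATatttggcta
ZIP4, near: gtccatagaATGTCGACACtctttcact
IRT3, far: tacaacaaaATGTCGACATttagttggc
IRT3, near: ttcctcacgATGTCGACATtacttgtat
ZIP10: taattagtaATGTCGACACttactttga
ZIP12: ttaccgtgcATGTCGACATtactcccaa
ZIP5: gtacaatttATGTCGACATtctctcgac

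ZIP4 and IRT3 each held 2 elements, 652 and 524 bases before the coding start in ZIP4 and 263 and 165 bases before it in IRT3. The nearer element of each lay inside the annotated first part of the transcript, and the others were intergenic. ZIP10 held 1 element at 116 bases, ZIP12 1 at 166 bases and ZIP5 1 at 971 bases. ZIP10 and ZIP12 are annotated with no leader before the coding start, so their distances run from the gene start as well. Within 1000 bases before the coding start, 5 of the 8 transporter genes held a ZDRE, against 77 of 27443 protein-coding genes (0.281%). The 8 genes were chosen as known targets of factors that bind this element, so the contrast is a description and no independent support. The core alone, with any outer bases, occurred in 254 of those genes (0.926%) and in the same 5 members. ZIP1, ZIP3, ZIP9, BZIP19 and BZIP23 had no exact match in that window. With 1 base of the core allowed to change, ZIP9 also had a match within 500 bases of its gene start, but so did 12.5% of all genes. Since ZIP4 and IRT3 were the only 2 genes in the search with at least 2 elements, the pair shares this feature as well as sequence. These letters are from A. thaliana, and the A. halleri promoters were not analysed here.

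**Figure D1:**
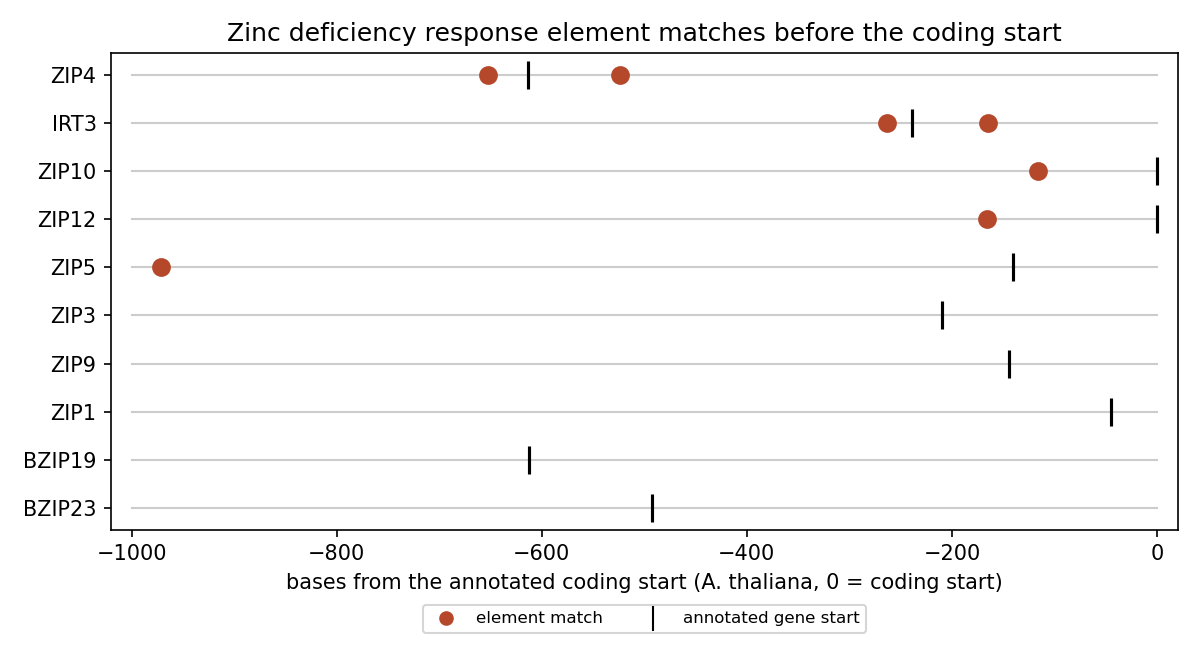
Positions of ZDRE matches (red points) before the annotated coding start of each of the 10 genes in A. thaliana, in bases, with the annotated gene start as a black tick. ZIP4 and IRT3 carry 2 matches each, one on either side of the gene start, and 5 genes carry none within 1000 bases.

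For both species, reads were counted on A. thaliana transcript models. The counted reads came to 16335761 and 15497893 in Ah root and 18127031 and 22762183 in At root. Reads placed on no model are not part of these totals. One read was worth 0.0451 to 0.0634 CPM, the unit of reads scaled to TMM-adjusted library size used here for levels. All 9 root markers had reads in every library. Of these, 5 were called higher in Ah root, 1 lower and 3 not called, beside 35.7% higher and 36.8% lower among all loci tested. PYK10 had the largest rise, at 4.31-fold, and PHO1, the marker called lower, was 2.74-fold lower. Whether the make-up of root tissue had a part in the values of the zinc genes was not tested. The 7 green tissue markers, at 75.2 and 122.6 summed CPM in Ah root against 28.5 and 22.2 in At root, were called higher in 6 of 6 tested, and RBCS3B was at 0 to 2 reads. Whether green tissue had a part in the values of the zinc genes was not tested. Reads of A. halleri that match the models poorly, and reads of extra gene copies in A. halleri, enter each value. Their part was not tested either, and in whole roots fewer cells of a type and less RNA per cell cannot be told apart.

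The comparison asks whether roots of the zinc accumulator express the zinc deficiency genes differently at equal zinc supply. Among the 8 ZIP genes 7 were higher in Ah root, by 6.75-fold (ZIP1) to 46.8-fold (ZIP9) for the 5 with reads in every library, and ZIP5 was lower with no read at all. The pair of regulators differed in opposite directions, with BZIP19 2.92-fold lower and BZIP23 2.85-fold higher. Over all 20899 loci tested with edgeR, 72.5% passed an adjusted p of 0.05, 35.7% higher and 36.8% lower in Ah root. Against that background, 8 of the 10 genes were called higher and 2 lower. ZIP5, ZIP10 and ZIP12 entered the test through the reads of 1 species only and had to differ. The libraries of the 2 species did not overlap for any of the 10 genes, and that held for 87.2% of all loci tested. The 7 genes with at least 10 reads in every library, 6 of them higher and 1 lower, also passed edgeR's test against a 2-fold change, which 30.6% of all loci passed. Their median log2 difference was 2.96 and that of all loci -0.01. The 30.6% and the -0.01 were taken without the limit of 10 reads. In a fit to the 18039 loci that met this limit, the median was 0.007.

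**Figure D2:**
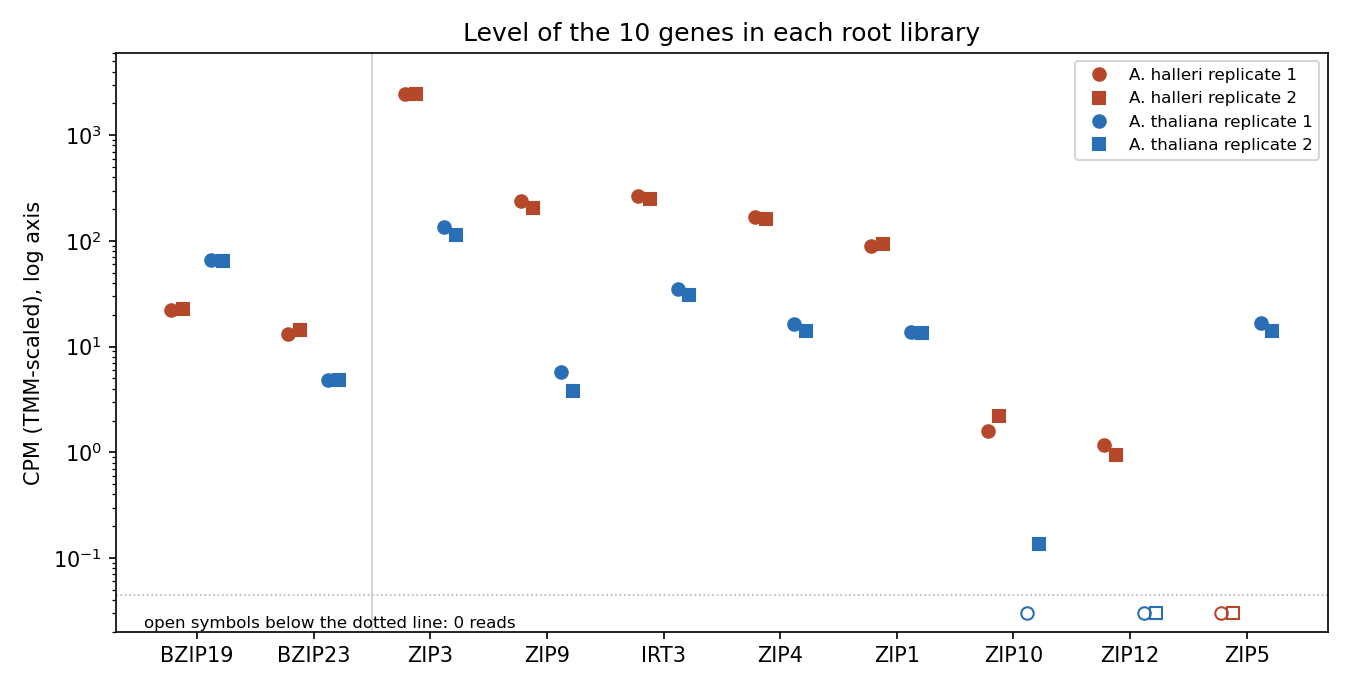
Level of each gene in each library, in CPM on a log axis, with A. halleri in red left of A. thaliana in blue. Open symbols under the dotted line stand for libraries with 0 reads, and the libraries of the 2 species do not overlap for any gene.

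BZIP19 (AT4G35040, TAIR10.1 chromosome 4, 16680209 to 16682881, plus strand, 3 exons) encodes one of the paired zinc sensors and activators. It had 376 and 361 reads in Ah root, or 22.2 and 22.9 CPM, against 1170 and 1441 reads, or 66.4 and 65.1 CPM, in At root. Both Ah root libraries lay far below both At root libraries. BZIP19 was 2.92-fold lower in Ah root, at 22.5 ± 0.520 against 65.7 ± 0.940 CPM (SD, n = 2 each; log2 -1.54, SE 0.09, edgeR adjusted p = 6.97e-06).

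BZIP23 (AT2G16770, chromosome 2, 7279366 to 7281499, plus strand, 3 exons), the partner that acts with partial overlap, went the other way. It had 225 and 227 reads in Ah root, or 13.3 and 14.4 CPM, against 85 and 108 reads, or 4.82 and 4.88 CPM, in At root. Here both Ah root libraries were the high ones. BZIP23 was 2.85-fold higher in Ah root (log2 1.51, SE 0.15, edgeR adjusted p = 8.93e-05). By absolute log2 difference, BZIP19 lay above 73.6% of all loci tested and BZIP23 above 72.9%.

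The balance of the 2 regulators differed between the species. BZIP19 made up 62.6% (95% exact binomial interval 58.6 to 66.4) and 61.4% (57.3 to 65.3) of the pair's reads in the Ah root libraries. In the At root libraries its share was 93.2% (91.7 to 94.6) and 93.0% (91.6 to 94.2). These intervals, and the limits given for counts of 0, hold counting error and no variation between libraries. They treat every read as independent, which PCR copies of 1 molecule are not, so they may be too narrow. The transcripts share 74.4% of bases over 946 aligned bases, so reads could be placed on the wrong one. All reads of both genes were counted as unique in every library, and whether any were misplaced was not tested. Summed into 1 feature, the pair was still lower, at 35.4 and 37.3 CPM in Ah root and 71.2 and 69.9 in At root (1.94-fold, log2 -0.96, SE 0.09, edgeR adjusted p = 6.02e-05).

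The end of each regulator gene overlaps a neighbour on the other strand, and the strand setting of the counts is not given in the sources used here. BZIP19 overlaps MSI3 over 302 of its 2673 bases, and BZIP23 overlaps MSI2 over 126 of 2134. MSI3 stood at 15.0 and 16.6 CPM in Ah root and 15.8 and 16.8 in At root, and MSI2 at 33.4 and 34.4 against 31.8 and 33.7. Neither neighbour was called (edgeR adjusted p = 0.759 for MSI3 and 0.671 for MSI2). ZIP1 overlaps ALIS1 over 125 of 1551 bases, and ALIS1 was lower in Ah root, at 88.8 and 101 CPM against 156.9 and 150.4, while ZIP1 was higher.

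**Figure D3:**
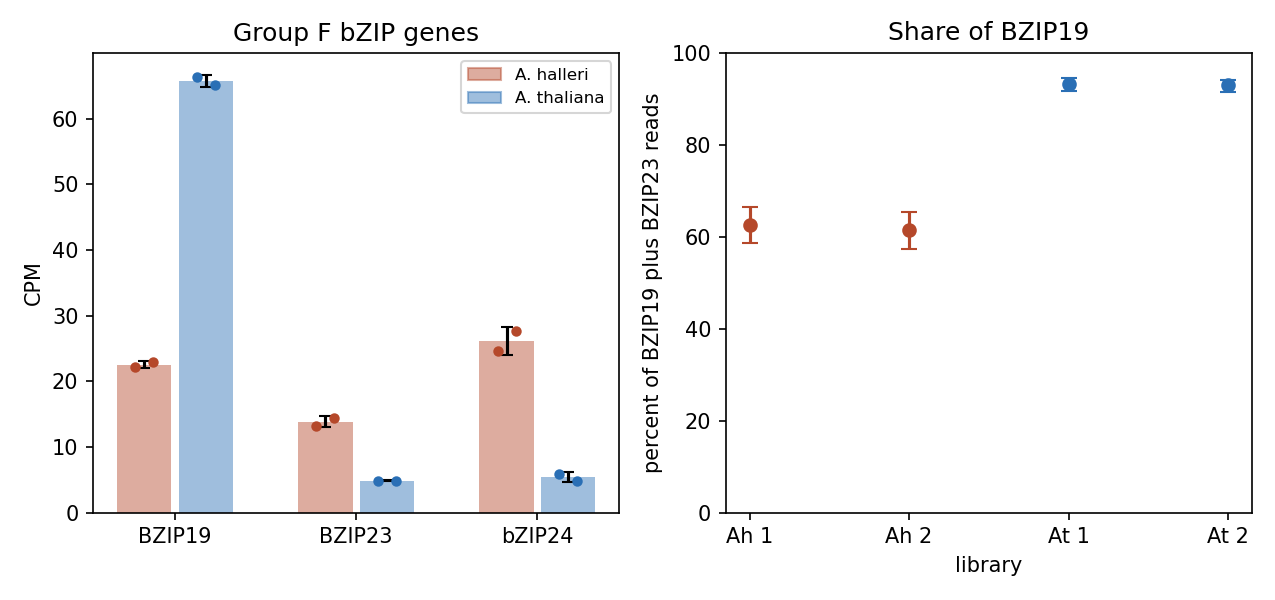
Left, mean level in CPM of the 3 related bZIP genes, with error bars for the SD of 2 libraries and points for each library, A. halleri in red and A. thaliana in blue. Right, BZIP19 as a percent of BZIP19 plus BZIP23 reads in each library with its 95% exact binomial interval, 61.4% to 62.6% in A. halleri and 93.0% to 93.2% in A. thaliana.

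ZIP3 (AT2G32270, chromosome 2, 13704068 to 13706928, plus strand, 3 exons), a carrier that restores zinc uptake in yeast, was by far the most abundant. ZIP3 had 42120 and 38844 reads in Ah root, or 2482 and 2463 CPM, against 2384 and 2496 reads, or 135.3 and 112.7 CPM, in At root. The 2 Ah root libraries were almost equal, and the lower of them stood well clear of the higher At root library. ZIP3 was 19.95-fold higher in Ah root (log2 4.32, SE 0.13, edgeR adjusted p = 4.43e-07). By deposited RPKM it lay above 99.9% of loci with reads in both Ah root libraries and above 93.9% and 92.7% in the At root libraries.

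ZIP9 (AT4G33020, chromosome 4, 15932420 to 15934762, minus strand, 4 exons), known in A. thaliana for its strong induction when zinc runs short, had the largest fitted fold among the genes with at least 10 reads in every library. It had 4084 and 3199 reads in Ah root, or 240.7 and 202.9 CPM, against 102 and 84 reads, or 5.79 and 3.79 CPM, in At root. The libraries of each species varied by more than those of ZIP3, yet the groups lay far apart. ZIP9 was 46.8-fold higher in Ah root (log2 5.55, SE 0.20, edgeR adjusted p = 9.18e-07).

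ZIP4 (AT1G10970, chromosome 1, 3665087 to 3667139, minus strand, 3 exons), a marker gene of zinc deficiency, had 2889 and 2532 reads in Ah root, or 170.3 and 160.6 CPM. In At root it had 291 and 312 reads, or 16.5 and 14.1 CPM. Every Ah root value was above every At root value, and the difference was 10.8-fold (log2 3.44, SE 0.11, edgeR adjusted p = 6.74e-07). IRT3 (AT1G60960, chromosome 1, 22445299 to 22447299, minus strand, 3 exons) encodes a plasma membrane carrier of zinc and iron and is the closest relative of ZIP4 among the members. IRT3 had 4480 and 3935 reads in Ah root, or 264 and 249.5 CPM, against 619 and 683 reads, or 35.1 and 30.8 CPM, in At root. It was 7.79-fold higher (log2 2.96, SE 0.10, edgeR adjusted p = 8.28e-07). ZIP4 and IRT3 share 80.8% of bases over 1245 aligned bases. As 1 feature they were 8.75-fold higher in Ah root, at 434.3 and 410.1 CPM against 51.6 and 44.9 (edgeR adjusted p = 7.12e-07).

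ZIP1 (AT3G12750, chromosome 3, 4051651 to 4053201, minus strand, 2 exons), which like ZIP3 restores zinc uptake in yeast, had the smallest fold among the transporters that were higher. ZIP1 had 1509 and 1476 reads in Ah root, or 88.9 and 93.6 CPM, against 240 and 297 reads, or 13.6 and 13.4 CPM, in At root. Replicates were close in both species, and ZIP1 was 6.75-fold higher in Ah root (log2 2.76, SE 0.10, edgeR adjusted p = 8.23e-07).

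The last 3 transporter genes were at or near 0 in 1 species. They entered the test through the reads of the other species and had to differ, so their adjusted p-values add no support. ZIP5 (AT1G05300, chromosome 1, 1544927 to 1547849, minus strand, 2 exons) had 0 and 0 reads in Ah root against 297 and 314 reads, or 16.9 and 14.2 CPM, in At root. It was at least 168-fold lower in Ah root, taking 3 reads over both Ah root libraries (0.0916 CPM) as the limit that a count of 0 allows (edgeR adjusted p = 6.04e-06). ZIP5 is close to ZIP3, with 78.2% of bases shared over 987 aligned bases, and reads of an A. halleri ZIP5 could have been counted as ZIP3 or lost. ZIP3 and ZIP5 as 1 feature were 17.7-fold higher in Ah root, at 2482 and 2463 CPM against 152.1 and 126.9 (log2 4.15, SE 0.13, edgeR adjusted p = 4.81e-07). ZIP5 is the only member counted on 2 transcript models, and in At root the shorter model took 286 of 297 and 297 of 314 reads.

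ZIP12 (AT5G62160, chromosome 5, 24960107 to 24961864, plus strand, 2 exons) was the mirror image at a low level. It had 20 and 15 reads in Ah root, or 1.18 and 0.951 CPM, and 0 and 0 reads in At root, so it was at least 14.2-fold higher in Ah root against 3 reads over both At root libraries (edgeR adjusted p = 0.000397). ZIP10 (AT1G31260, chromosome 1, 11175559 to 11177362, minus strand, 3 exons) had 27 and 35 reads in Ah root, or 1.59 and 2.22 CPM, against 0 and 3 reads in At root. The 3 reads were all in At root replicate 2, and the fitted log2 difference of ZIP10 was 4.54 with that library and 7.999 without it. The ratio of its scaled reads was 25.1, with a 95% exact counting interval of 8.20 to 125 (edgeR adjusted p = 0.000493). In A. thaliana both genes are known mainly as transcripts that appear under zinc deficiency. Outside the members, ZIP10 shares 70.7% of bases with ZIP8 and 70.7% with IRT1. IRT1 had 1865 and 708 reads in Ah root and 3110 and 4125 in At root, and ZIP8 had 46 and 12 against 6 and 5. The species with fewer IRT1 reads had more ZIP10 reads, and ZIP8 went the same way as ZIP10. Of the IRT1 reads, 1282 and 494 in Ah root and 2104 and 2767 in At root were unique. For ZIP8 the unique reads were 16 and 3 against 1 and 1. Whether reads were misplaced among these genes was not tested.

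**Figure D4:**
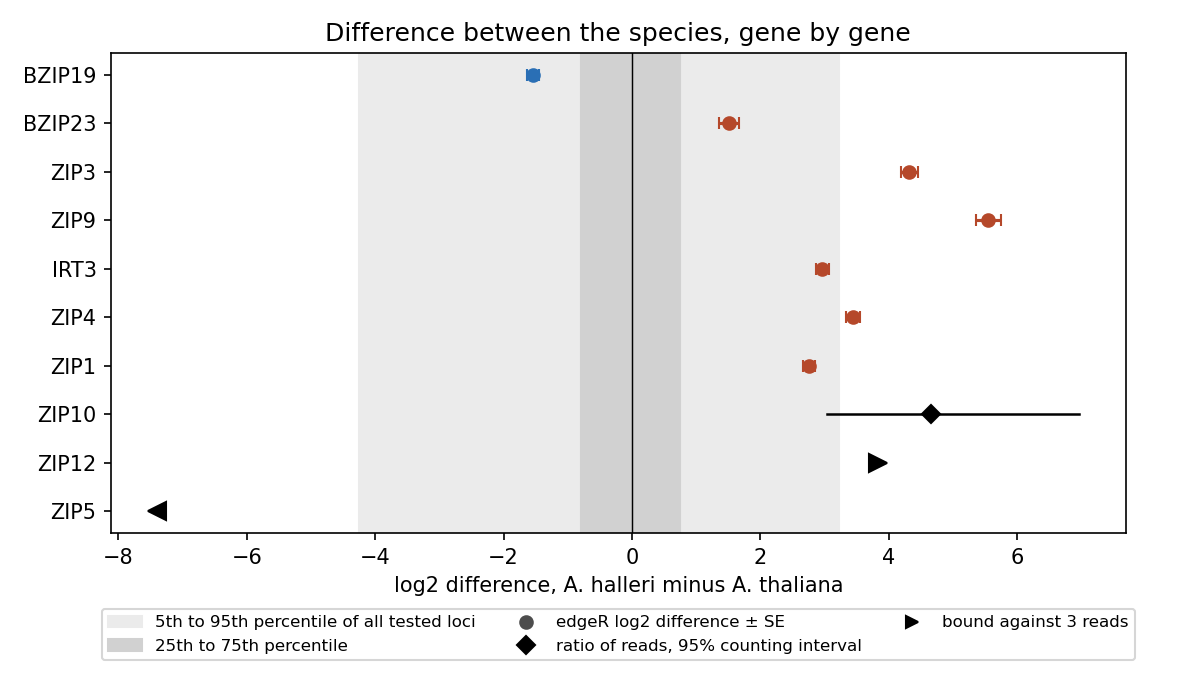
Log2 difference of each gene, A. halleri minus A. thaliana, over the spread of all 20899 loci tested (dark grey 25th to 75th and light grey 5th to 95th percentile, the last from -4.25 to 3.23). Circles are edgeR values with their SE, the diamond is the read ratio of ZIP10 with its counting interval, and triangles are bounds for ZIP12 and ZIP5. ZIP3, ZIP4 and ZIP9 lie past the 95th percentile, and IRT3 and ZIP1 inside it.

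Per unit of length, the order of the 10 genes in Ah root by deposited RPKM was ZIP3 (1919 ± 38.4), ZIP9 (220.5 ± 29.8), IRT3 (172.4 ± 9.39), ZIP4 (110 ± 6.16), ZIP1 (66.4 ± 1.44), BZIP19 (15.7 ± 0.133), BZIP23 (9.98 ± 0.434), ZIP10 (1.79 ± 0.391), ZIP12 (1.03 ± 0.170) and ZIP5 (0). No neighbours in that order overlapped between their 2 libraries. In At root the order was ZIP3 (91.0 ± 11.7), BZIP19 (43.4 ± 0.594), IRT3 (20.9 ± 1.91), ZIP5 (10.8 ± 1.35), ZIP4 (9.62 ± 1.07), ZIP1 (9.31 ± 0.0961), ZIP9 (4.50 ± 1.32), BZIP23 (3.31 ± 0.0276), ZIP10 (0.0602 ± 0.0851) and ZIP12 (0). There ZIP5 and ZIP4 overlapped, as did ZIP4 and ZIP1 and, at 0 reads, ZIP10 and ZIP12. ZIP9 thus ranked second in Ah root and seventh in At root. The regulator BZIP19 ranked sixth in Ah root, under 5 of its targets, and second in At root, under ZIP3 alone.

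Together the 8 transporter genes took 3249 and 3173 CPM in Ah root and 223.2 and 189.1 CPM in At root, a 15.6-fold ratio of the means. ZIP3 supplied 76.4% and 77.6% of these reads in Ah root and 60.6% and 59.6% in At root. Without ZIP3, the other 7 genes summed to 766.6 and 709.7 CPM in Ah root against 87.9 and 76.4 CPM in At root, still 8.98-fold more. IRT3 made up 8.13% and 7.86% of the sum in Ah root and 15.7% and 16.3% in At root, although its own level was higher in Ah root. ZIP9 made up 7.41% and 6.39% in Ah root and 2.59% and 2.01% in At root.

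**Figure D5:**
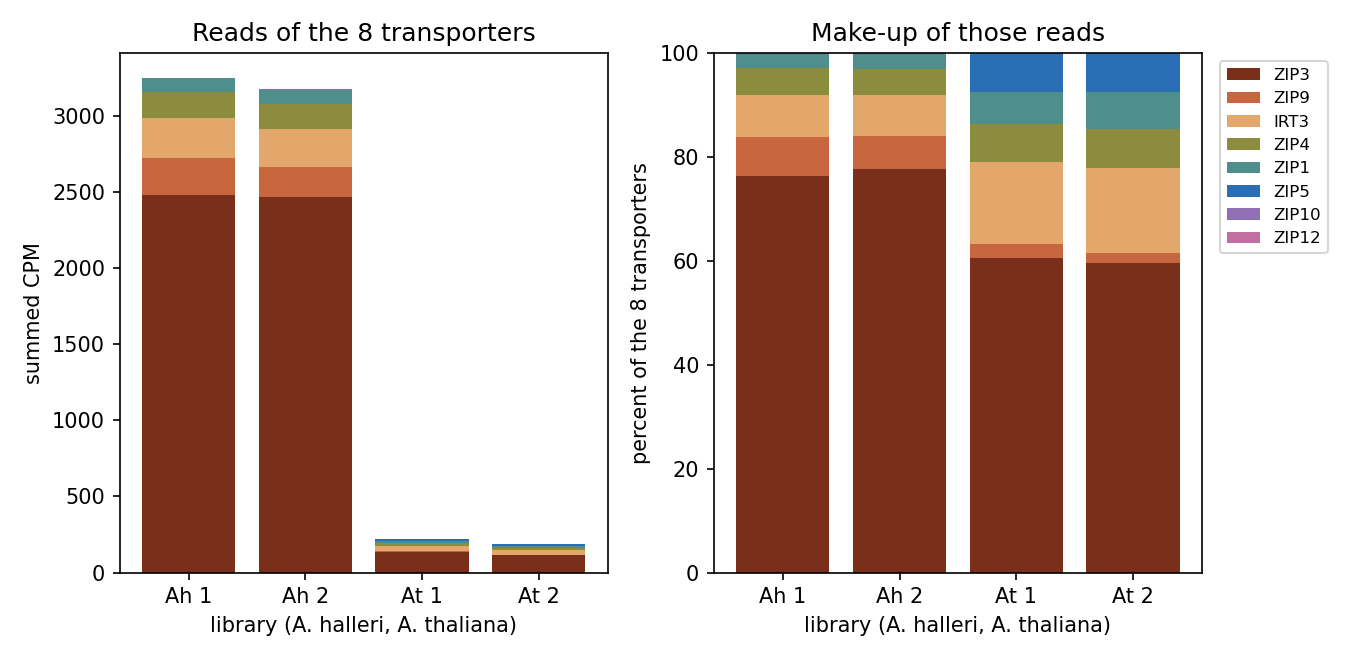
Left, summed CPM of the 8 transporter genes in each library, stacked by gene, 3249 and 3173 in A. halleri (Ah) and 223.2 and 189.1 in A. thaliana (At). Right, the same reads as percent of the 8 genes, with ZIP3 above 75% in A. halleri and near 60% in A. thaliana, ZIP5 present in A. thaliana alone, and ZIP10 and ZIP12 too low to be seen.

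Of 5 further genes linked to zinc deficiency, 2 were called higher in Ah root, 1 lower and 1 was not called, and MTP2 was too low to test. So few genes cannot be set apart from the 72.5% called among all loci. NAS2 (AT5G56080), a nicotianamine synthase gene and a known target of both regulators, had 483 and 473.4 CPM in Ah root against 32.7 and 34.7 in At root and was 14.2-fold higher (edgeR adjusted p = 3.12e-07). The other known synthase target, NAS4 (AT1G56430), had 13.5 and 11.5 CPM against 11.0 and 14.7, with overlapping libraries (log2 -0.05, SE 0.18, edgeR adjusted p = 0.822). No exact ZDRE stood within 1000 bases before the coding start of NAS2 or NAS4.

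The third member of the regulators' subfamily, bZIP24 (AT3G51960), known for its part in the response to salt, was 4.89-fold higher, at 24.6 and 27.6 CPM in Ah root and 5.90 and 4.83 in At root (log2 2.29, SE 0.15, edgeR adjusted p = 1.10e-05). Unique reads of bZIP24 were 113 of 418 and 119 of 436 in Ah root and 28 of 104 and 33 of 107 in At root. All reads of BZIP19 and BZIP23 were unique, so the 3 genes do not rest on like counts. By total reads, BZIP19 alone of the 3 related factors was lower in Ah root. HMA2 (AT4G30110), a xylem-loading zinc pump, was 18.5-fold lower, at 1.41 and 0.951 CPM against 22.8 and 21.6. MTP2 (AT3G61940), a zinc carrier of the endoplasmic reticulum, had 0 and 0 reads in Ah root and 6 and 2 in At root.

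The other 7 ZIP family genes include IRT1 and IRT2 of iron uptake. Of 6 tested, 2 were higher, 3 lower and 1 was not called, beside 35.7% higher and 36.8% lower among all loci. Their median log2 difference over the 6 tested was -0.88, against 3.44 for the 5 targets with at least 10 reads in every library. That read limit was not set for the other ZIP genes. Without it, the median of all 8 targets was 3.88, with ZIP5, ZIP10 and ZIP12 included. These 3 genes had to differ, and their fitted values depend on the prior count, so that median adds no support. The summed level of the other 7 ZIP family genes was 203.4 and 140 CPM in Ah root against 239.3 and 242 in At root. The 13 genes of zinc distribution, such as pumps and vacuolar carriers, gave 6 higher, 4 lower and 3 not called (median log2 0.31), again beside 35.7% higher and 36.8% lower among all loci. Some of these calls rest on reads that were not counted as unique. Such reads may fit several loci or several models of the same locus, and these were not told apart. ZIP5, the only member with 2 models, had 90 and 117 unique reads out of 297 and 314 in At root. The other members had unique reads only. MTP1, a vacuolar zinc carrier gene, had 5681 and 5310 reads in Ah root against 1550 and 2028 in At root, but 0 and 0 unique reads against 216 and 291. FRD3, a citrate exporter gene, had 4838 and 4390 reads in Ah root against 392 and 497 in At root, of which 4 and 1 were unique against 34 and 38. Over the further zinc genes, unique reads gave 7 higher and 11 lower, against 10 and 8 with total reads.

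Over the 4 libraries, the loci whose centred log2 CPM profile lay nearest to that of ZIP4, among 12954 loci of at least 10 CPM on average, were NUC-L2 (AT3G18610, root mean square distance 0.03), AT1G68040 (0.06) and AT3G45660 (0.06). Nearest to BZIP19 were AT3G56750, AT5G04170 and AT5G17190, each at a distance of 0.02. With 2 species and 2 libraries each, such likeness rests on little more than the size of 1 difference.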

How the data were processed

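RNA-seq of roots gave 4 libraries, 2 per species, grouped by the titles' species and replicate number. Per the file headers, the deposited files list whole-number counts of total and unique reads per A. thaliana transcript model, and the RPKM made by the authors from total counts and model length, which could be recomputed within rounding. TAIR 10 is the build in the submitters' processing notes. The strand setting, like the aligner, the counter and the filters, is not given in the sources used here. For each locus, total reads of its models were added up. The 10 members, the gene lists and the tests were chosen with earlier results of these data known.

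Differences were tested over 20899 loci with edgeR 4.0.16 in R 4.3.3 (quasi-likelihood F test, TMM factors, default low-count filter, species as the only term, 2 residual degrees of freedom) with Benjamini-Hochberg adjustment over all loci and a threshold of 0.05. SE values were taken from the F statistic. Reads counted on the models came to 15497893 to 22762183 per library. In simulated counts for this comparison, with 200 of 20704 loci changed, 95.5% of 2-fold and 25.5% of 1.5-fold changes were found. The changed loci were drawn from well-read ones, and all loci were given the same variability. Far fewer loci were changed than the 72.5% called in the data, so these rates do not cover low-count members or this background. Replicates differed by more than sampling noise (chi-square per locus 9.48 in Ah root and 12.3 in At root), so none was counted as a duplicate.

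Alternatives were RLE and upper-quartile factors, library totals, DESeq2 1.42.0, limma 3.58.1 on log2 RPKM with a pseudocount of 1 or 0.1, unique reads, 2 other filters, a 2-fold test, a replicate block, leaving out each library and summing related members (identity from 70% and aligned share from 50% of the shorter one, BLAST 2.17.0). Positions and sequences are from TAIR10.1, where all 10 members were found by locus ID. The ZDRE search covered 1000 bases before the annotated coding start, and 500 bases before the gene start for the 1-base change. These windows and the change were chosen after seeing the data. Named genes were the 10 members, the 5 further zinc deficiency genes, the 3 loci nearest in profile to ZIP4 and BZIP19, and others only where a result turned on them.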

Additional observations from a re-analysis of the deposited data

How the results depend on the processing

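All 147 values of single genes under the other settings kept their direction and stayed past the threshold. They include 14 values each for ZIP5, ZIP10 and ZIP12, which had to differ, so for these genes the agreement says nothing. The counts of 8 higher and 2 lower changed under 2 of the 16 settings. With at least 10 reads required in every library, ZIP5, ZIP10 and ZIP12 drop out by construction, leaving 6 higher and 1 lower. With related members summed into 7 features, 6 were higher and 1, the regulator pair, lower. The number of loci called, 15161, was 6391 against a 2-fold change. Leaving out 1 library at a time gave 13615 to 14259 calls, with the lone library assumed to vary like the others. The log2 difference of ZIP9 was 5.26 without At root replicate 2 and 5.87 without At root replicate 1. Fitted values of ZIP5, ZIP10 and ZIP12 depend on the prior count. The log2 difference of ZIP10, 4.54, was 1.39 with limma on RPKM plus 1. It was 3.75 without At root replicate 1 and 7.999 without At root replicate 2, the only At root library with reads of it. With the replicate number as a block 14819 loci were called, and the members' calls were the same. The numbers were not used to pair libraries, as their deviations correlated at -0.05 over loci. With unique reads, 7 of the 25 further zinc genes were higher and 11 lower, against 10 and 8 with total reads.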

Other observations

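Among all loci with a ZDRE within 1000 bases before the coding start, 62 of 77 were tested. Of these, 43.5% were higher and 30.6% lower in Ah root, beside 35.7% and 36.8% of all loci. With the 10 members left out, 57 loci remained, of which 40.4% were higher and 31.6% lower, with a median log2 difference of 0.04. The median over all loci tested was -0.01.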
